A study of Mus musculus with 25 samples.

Results

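The genes Tnfrsf4, Tnfrsf18, Tnfrsf9, Tnfrsf1b and Cd27 encode 5 costimulatory receptors of the tumour necrosis factor (TNF) receptor family. Their H3K27ac chromatin contacts were followed in activated CD8+ T cells of mice. A contact was a pair of 1 kb genome bins joined in an H3K27ac HiChIP library, an assay that ligates neighbouring chromatin ends and then keeps fragments carrying this mark of active enhancers and promoters. A pair belonged to a gene when at least 1 of its bins overlapped the gene's annotated span extended by 5 kb on each side. Of 121571 pairs listed in any library, 781 met this rule, and 219 of these were among the 28033 pairs listed in all 6 libraries.

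The 6 libraries were made from CD8+ T cells taken from the spleens of C57BL/6J mice. They cover 3 genotypes, namely a deletion in an intron of Il2ra, a deletion upstream of Il2ra, and wild type (WT). Il2ra encodes the alpha chain of the IL-2 receptor (CD25), and the deletions were made by CRISPR in its super-enhancer. Activation for 2 days and a rest of 4 h preceded sampling in every group, and each genotype was sampled with IL-2 and without it (control). The 19 ChIP-seq samples of the series were not analysed here. Each genotype and treatment had 1 library among those analysed here, so that no library is set beside a like replicate. The tables are marked as a second replicate, and the sources used here do not say how many were made. The labels do not give the animals per library, their age, the exact bases deleted, the number of mouse lines, or the dose and duration of IL-2.

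TNF receptor family costimulators are membrane receptors that T cells display mainly after antigen recognition, and that recruit TRAF adaptors to switch on NF-kB and survival programmes. OX40 (Tnfrsf4), GITR (Tnfrsf18) and CD137 (Tnfrsf9) are induced by activation, while CD27 is already present on naive T cells and is lost with prolonged effector differentiation. TNFR2 (Tnfrsf1b) binds TNF itself and is carried by activated and regulatory T cells. IL-2 signals through STAT5, which binds DNA at paired TTC and GAA letters.

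The promoters are shown because the members shared a gene family but differed in their direction with IL-2, and because their start bins, or the bins next to them, anchored many of the pairs described here. The sequences are RefSeq windows of GRCm38.p6 (mm10), from 250 bases before to 50 bases after an annotated transcript start, printed on the sense strand. Capitals mark the STAT motif TTCNNNGAA, the AP-1 motif TGANTCA and the NF-kB decamer consensus, each searched on both strands.

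Tnfrsf4, chr4:156013445-156013744 (+ strand): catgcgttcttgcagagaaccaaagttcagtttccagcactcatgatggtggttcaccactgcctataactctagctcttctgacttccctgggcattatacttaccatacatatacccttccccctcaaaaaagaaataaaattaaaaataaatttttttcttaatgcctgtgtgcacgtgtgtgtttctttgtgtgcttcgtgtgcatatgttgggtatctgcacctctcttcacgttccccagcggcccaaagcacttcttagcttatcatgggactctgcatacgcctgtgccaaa
Tnfrsf18, chr4:156026072-156026371 (+ strand): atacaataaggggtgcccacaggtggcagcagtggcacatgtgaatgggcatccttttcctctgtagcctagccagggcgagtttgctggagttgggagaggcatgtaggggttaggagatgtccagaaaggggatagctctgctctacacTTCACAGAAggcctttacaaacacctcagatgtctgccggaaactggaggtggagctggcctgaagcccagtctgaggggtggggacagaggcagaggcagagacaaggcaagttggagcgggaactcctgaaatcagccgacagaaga
Tnfrsf9, chr4:150927749-150928048 (+ strand): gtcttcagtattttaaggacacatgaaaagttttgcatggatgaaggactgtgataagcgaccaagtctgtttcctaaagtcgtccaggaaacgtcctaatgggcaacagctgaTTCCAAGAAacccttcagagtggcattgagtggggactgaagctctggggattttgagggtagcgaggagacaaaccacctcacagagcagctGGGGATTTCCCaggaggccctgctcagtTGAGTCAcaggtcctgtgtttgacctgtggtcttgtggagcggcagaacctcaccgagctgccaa
Tnfrsf1b, chr4:145246821-145247120 (- strand): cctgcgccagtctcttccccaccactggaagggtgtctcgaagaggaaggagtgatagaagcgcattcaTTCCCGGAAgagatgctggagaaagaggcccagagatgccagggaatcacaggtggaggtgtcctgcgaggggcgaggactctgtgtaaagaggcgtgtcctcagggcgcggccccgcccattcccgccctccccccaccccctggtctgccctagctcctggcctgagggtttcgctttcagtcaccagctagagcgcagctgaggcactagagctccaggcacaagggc
Cd27, chr6:125236978-125237277 (- strand): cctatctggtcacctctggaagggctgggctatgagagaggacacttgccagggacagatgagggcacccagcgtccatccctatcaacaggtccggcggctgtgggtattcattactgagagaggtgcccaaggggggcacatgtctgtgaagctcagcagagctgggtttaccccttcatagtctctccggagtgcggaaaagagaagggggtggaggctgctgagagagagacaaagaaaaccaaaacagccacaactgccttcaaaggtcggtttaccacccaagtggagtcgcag

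The STAT motif lay 99 bases before the start of Tnfrsf18, 136 bases before the second annotated start of Tnfrsf9 and 181 bases before the start of Tnfrsf1b. The second Tnfrsf9 window also held the AP-1 motif 15 bases before the start, and 2 overlapping matches to the NF-kB consensus 43 and 42 bases before it. The windows of Tnfrsf4 and Cd27, and that of the first Tnfrsf9 start (chr4:150919905-150920204, not printed), held none of the 3 motifs. Of 32851 promoter windows of this length in the table, 8.30% held the STAT motif, 7.81% the AP-1 motif and 4.51% the NF-kB consensus. A match is a stretch of letters and not a measured binding site.

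Tnfrsf4 (gene ID 22163) lies at chr4:156013595-156016613 and Tnfrsf18 (gene ID 21936) at chr4:156026322-156028894, both on the + strand, with 9.71 kb between them. Their windows overlapped, and 121 of the 276 pairs of either gene belonged to both. Tnfrsf9 (gene ID 21942) lies on the + strand at chr4:150920155-150946104. Tnfrsf1b (gene ID 21938) and Cd27 (gene ID 21940) lie on the - strand, at chr4:145212368-145246870 and chr6:125232620-125237136. The annotation used gives gene spans and starts without exons, so that bins inside a gene could not be split into exons, introns or UTRs.

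The libraries differed in depth and in how far IL-2 changed them. Listed pairs numbered 72743 with IL-2 and 38879 in control for the intron deletion, 61168 and 56113 for the upstream deletion, and 94922 and 72698 for WT. Their contacts summed to between 1314137 and 3596995 per library. In the 50.4 kb span of Il2ra, 6 bins with IL-2 and 5 in control anchored a listed pair in intron deletion cells, 26 and 25 in upstream deletion cells, and 29 and 26 in WT cells. In a stretch of the same length before its start these numbers were 21 and 9, 14 and 8, and 32 and 29, in the same order. Over pairs, the IL-2 and control libraries of the intron deletion differed by no more than counting noise. The chi-square per degree of freedom between them was 0.990 over all shared pairs and 0.923 over the 219 member pairs, against 2.99 over the member pairs in the upstream deletion and 2.49 in WT. Over bin coverage the 2 intron deletion libraries gave 3.26, above counting noise, and they were kept as 2 samples. Why these libraries were so alike was not tested, and results on IL-2 are also given without them.

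Over pairs listed in all 6 libraries, contacts at Tnfrsf4, Tnfrsf18 and Tnfrsf9 rose 1.24 to 1.26-fold with IL-2. Contacts at Cd27 fell to 0.838 of the control level, while those at Tnfrsf1b did not pass the test. Contacts were summed per gene window over pairs listed in all 6 libraries and tested with edgeR's quasi-likelihood test over 4532 genes, with genotype as a term. Levels are given as contacts-per-million (CPM) of the TMM-scaled total over all gene windows. Windows differ in length, so levels are compared between libraries and not between genes. The windows also hold bins of neighbouring genes, so a change cannot be assigned to the receptor gene alone. Of the 5 members, 4 passed a Benjamini-Hochberg adjusted p of 0.05, and 3.44% of all genes tested did so (1.9% higher, 1.54% lower).

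For Tnfrsf4, which encodes the receptor of OX40 ligand, the IL-2 libraries held 1049.5 (intron deletion), 1515 (upstream deletion) and 1513 (WT) CPM. The control libraries held 978, 1089 and 1164. The IL-2 library was the higher one in each genotype, although that of the intron deletion lay below the controls of the other genotypes. The log2 fold change was 0.32 ± 0.067 (SE, 3 libraries each, adjusted p = 0.0275).

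Tnfrsf18 encodes GITR, the neighbouring receptor. It held 1185, 1624 and 1517 CPM with IL-2 in intron deletion, upstream deletion and WT cells, against 1082, 1178 and 1215 in the controls. Its log2 fold change was 0.31 ± 0.063 (adjusted p = 0.0264). Since 35 shared pairs counted for both genes, the values of Tnfrsf4 and Tnfrsf18 are not independent of each other.

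Tnfrsf9, the gene of the activation-induced receptor CD137, held 269, 358 and 310.3 CPM with IL-2 in the same order of genotypes, against 253, 234 and 252 in the controls. All 3 IL-2 libraries lay above all 3 controls. The log2 fold change was 0.34 ± 0.083 (adjusted p = 0.0450), on 431 to 865 contacts per library. These contacts came from 16 of the 122 pairs listed for Tnfrsf9 in any library, since pairs unlisted in some library were left out. Over the alternative fits the log2 fold change ran from 0.20 to 0.86.

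Cd27, the receptor of CD70, moved in the other direction. It held 2200.3, 1964 and 1997 CPM with IL-2, against 2337, 2608 and 2406 in the controls of intron deletion, upstream deletion and WT cells. No IL-2 library reached the lowest control. The log2 fold change was -0.25 ± 0.064 (adjusted p = 0.0471).

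Tnfrsf1b, the gene of TNFR2, held 669, 714 and 703 CPM with IL-2, against 701, 776 and 758 in the controls. The IL-2 library was the lower one in each genotype, and the change of -0.10 ± 0.051 on the log2 scale did not pass the test (adjusted p = 0.293).

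**Figure D1:**
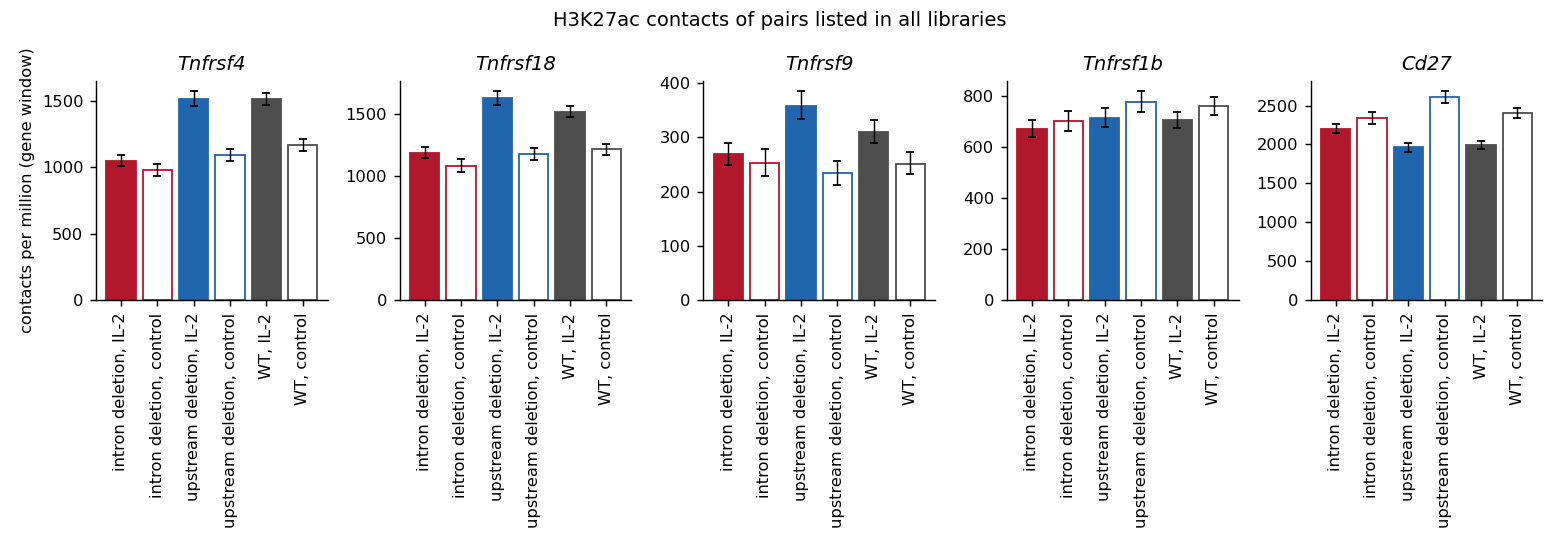
CPM of pairs listed in all 6 libraries, summed over each gene window (y axis), for the 6 libraries (x axis); filled bars are IL-2 and open bars control libraries, and error bars are 95% Poisson intervals that cover counting error only. IL-2 bars exceed the control bars of their genotype at Tnfrsf4, Tnfrsf18 and Tnfrsf9 and lie below them at Cd27, with the smallest steps in the intron deletion.

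The IL-2 calls rested on the WT and upstream deletion libraries. Without both intron deletion libraries the same 4 genes were called, with log2 fold changes of 0.43 for Tnfrsf4 (adjusted p = 0.000144), 0.40 for Tnfrsf18 (0.000353), 0.45 for Tnfrsf9 (0.00314) and -0.33 for Cd27 (0.000745). Leaving out any 1 of the WT or upstream deletion libraries kept every direction and removed all 4 calls. Without the IL-2 or the control library of the upstream deletion, Tnfrsf4 changed by 0.24 or 0.25 (adjusted p = 0.465 or 0.346), and without the IL-2 or the control library of WT by 0.29 in either case (0.322 or 0.321). Over the same 4 omissions the log2 fold change was 0.23 to 0.30 for Tnfrsf18, 0.20 to 0.36 for Tnfrsf9 and -0.25 to -0.17 for Cd27.

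Within single genotypes the IL-2 ratios were set beside exact binomial intervals, which cover counting error only. For Tnfrsf4 the ratio of IL-2 to control was 1.07 (95% interval 1.01 to 1.14) in intron deletion cells, 1.39 (1.32 to 1.47) in upstream deletion cells and 1.30 (1.24 to 1.36) in WT cells. For Tnfrsf9 it was 1.06 (0.939 to 1.20), 1.53 (1.36 to 1.72) and 1.23 (1.11 to 1.37). For Cd27 it was 0.942 (0.904 to 0.981), 0.753 (0.723 to 0.785) and 0.830 (0.800 to 0.862). At each of these genes the intron deletion had the ratio nearest to 1.

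The response to IL-2 in the intron deletion was then tested against that of the other 2 genotypes, in a fit that leaves 1 residual degree of freedom. The IL-2 change of Tnfrsf4 was smaller by 0.32 on the log2 scale (-0.32 ± 0.069, adjusted p = 0.0483). Of all genes, 2.14% passed this test, 1.43% higher and 0.706% lower. None of the member pairs passed it by edgeR, where 0.0357% of all pairs did (0.00357% higher, 0.0321% lower). The differences of Tnfrsf18 (-0.26 ± 0.074, adjusted p = 0.138), Tnfrsf9 (-0.36 ± 0.130, 0.254), Cd27 (0.25 ± 0.069, 0.119) and Tnfrsf1b (0.05 ± 0.068, 0.839) did not pass. With the upstream deletion or WT set apart in the same way, 0 members and 0% of all genes were called by edgeR; the unadjusted p of Tnfrsf9 was 0.0172 with the upstream deletion set apart, and those of the other 9 tests of members lay between 0.117 and 0.930.

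**Figure D2:**
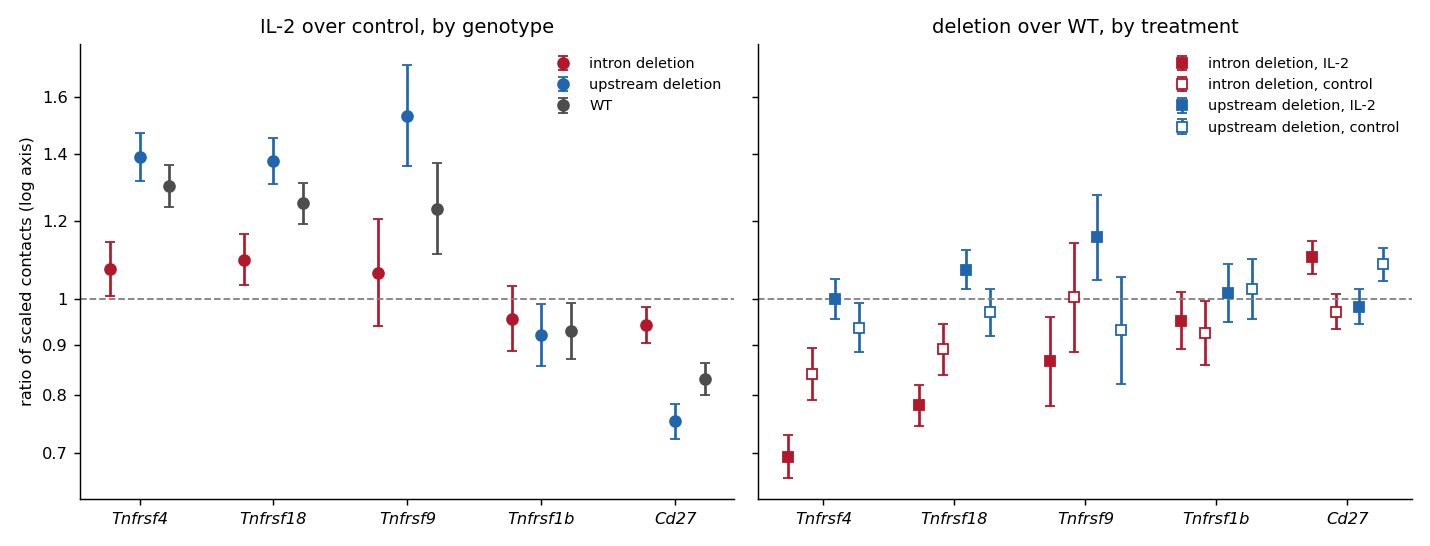
Ratios of TMM-scaled contacts of each member (y axis, log scale) for IL-2 over control in each genotype (left) and for each deletion over WT in each treatment (right), with exact binomial 95% intervals of counting error. At Tnfrsf4 the upstream deletion with IL-2 sits at 1.001 of WT while the intron deletion sits at 0.694 with IL-2 and 0.841 in control.

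Between genotypes, contacts at Tnfrsf4 and Tnfrsf18 were lower in the intron deletion than in WT. The 2 intron deletion libraries held 1049.5 and 978 CPM at Tnfrsf4, against 1513 and 1164 in WT (IL-2 and control in each case). The log2 fold change was -0.39 ± 0.082 (2 libraries each, adjusted p = 0.00693). At Tnfrsf18 it was -0.26 ± 0.077 (adjusted p = 0.0360). Thus 2 of 5 members were called, both lower, where 15.5% of all genes were called, 8.16% higher and 7.35% lower. Both calls draw on the 35 shared pairs that count for either gene, so they are not independent of each other. Tnfrsf9 (-0.11 ± 0.101, adjusted p = 0.505), Tnfrsf1b (-0.09 ± 0.062, 0.360) and Cd27 (0.05 ± 0.078, 0.699) did not pass.

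At both genes the ratio of intron deletion to WT lay further below 1 with IL-2 than in control. For Tnfrsf4 it was 0.694 (0.660 to 0.729) with IL-2 and 0.841 (0.790 to 0.894) in control. For Tnfrsf18 these ratios were 0.781 (0.745 to 0.820) and 0.891 (0.839 to 0.945). Without the IL-2 library of the intron deletion Tnfrsf4 changed by -0.22 (adjusted p = 0.0368) and Tnfrsf18 by -0.13 (0.249). Without the IL-2 library of WT neither was called (-0.34 with adjusted p = 0.184, and -0.25 with 0.389), and without the WT control Tnfrsf4 alone was called (-0.43, 0.0492; Tnfrsf18 -0.27, 0.257). DESeq2 called Tnfrsf4 (adjusted p = 0.0110) and not Tnfrsf18 (0.127).

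The upstream deletion showed no called difference from WT at any member gene. edgeR called 0 of 5 genes, 0 of 219 pairs and 1 of 67 bins, while DESeq2 called 0, 0 and 1. By edgeR 0.309% of all genes were called (0.287% higher, 0.0221% lower), 0.0785% of pairs (0.0464% higher, 0.0321% lower) and 1.69% of bins (1.21% higher, 0.484% lower). Unadjusted p-values of the 5 genes lay between 0.501 and 0.698. The log2 fold changes were -0.04 ± 0.081 for Tnfrsf4, 0.03 ± 0.077 for Tnfrsf18, 0.07 ± 0.099 for Tnfrsf9, 0.03 ± 0.062 for Tnfrsf1b and 0.05 ± 0.078 for Cd27.

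No listed pair had fewer than 20 contacts, and no source read here says whether every pair with that many was listed. Counts of listed pairs therefore depend on depth and on a rule that is not known. Tnfrsf9 had 45 listed pairs with IL-2 and 19 in control in intron deletion cells, 89 and 24 in upstream deletion cells, and 114 and 44 in WT cells. These are ratios of 2.37, 3.71 and 2.59, against 1.87, 1.09 and 1.31 for all listed pairs. For Cd27 the numbers were 193 and 129, 142 and 175, and 220 and 233, with ratios of 1.496, 0.811 and 0.944. For Tnfrsf4 the ratios were 1.72, 1.66 and 1.57, and for Tnfrsf1b 1.75, 0.982 and 1.03. These counts have no replicate check and no test.

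Among single pairs listed in all 6 libraries, IL-2 raised 13 and lowered 4 of the 219 member pairs by the adjusted p of edgeR. That was 7.76% of the member pairs, against 3.3% of the 28033 pairs tested (2.56% higher, 0.731% lower). Tnfrsf4 had 10 called of 53 and Tnfrsf18 9 of 56, all higher and partly the same pairs. Cd27 had 4 called of 97, all lower. None of the 16 pairs of Tnfrsf9 and none of the 32 of Tnfrsf1b was called. DESeq2 called 0 of the member pairs, and edgeR called 0 without any 1 of the WT or upstream deletion libraries and 36 without both intron deletion libraries. The share of all pairs called in those fits is not given here.

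At Tnfrsf4, Tnfrsf9 and Cd27 most pairs, called or not, lay in the direction of the gene. The gene sums above are made of these same pairs, so their direction is not separate support. At Tnfrsf4, CPM values were higher with IL-2 in 34 (intron deletion), 50 (upstream deletion) and 47 (WT) of 53 pairs, with median log2 ratios of 0.09, 0.55 and 0.36. At Tnfrsf9 the numbers were 10, 15 and 13 of 16 pairs, with medians of 0.07, 0.75 and 0.32. At Cd27 only 30, 12 and 24 of 97 pairs were higher with IL-2, with medians of -0.13, -0.34 and -0.21. Over all shared pairs 51.2%, 49.7% and 50.1% were higher with IL-2, with medians near 0. Pairs of 1 gene share bins and are not replicates.

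**Figure D3:**
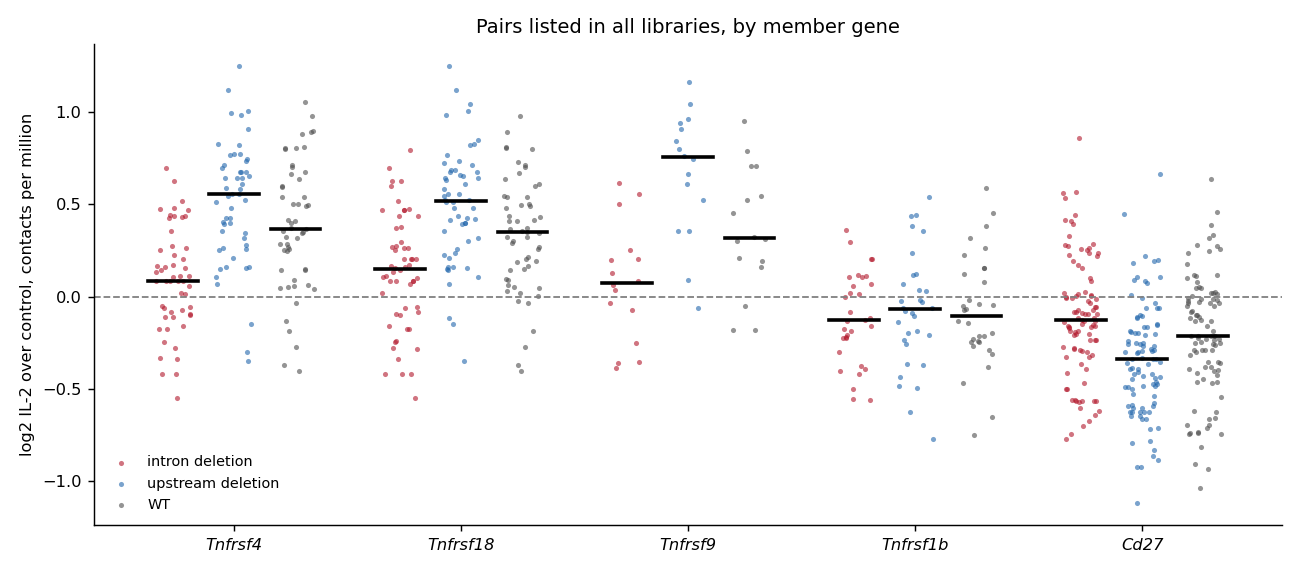
The log2 ratio of IL-2 to control CPM (y axis) for every pair listed in all 6 libraries, by member gene and genotype; points are pairs, black lines medians, and pairs that serve both Tnfrsf4 and Tnfrsf18 are drawn under each. Points of the upstream deletion and WT lie mostly above 0 at Tnfrsf4, Tnfrsf18 and Tnfrsf9 and mostly below 0 at Cd27.

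At Tnfrsf4 the 6 strongest pairs all left from chr4:156014001-156015000, a bin inside the gene next to the start bin, and 17 of its 53 shared pairs used it. Levels of single pairs are given as CPM of the TMM-scaled total over all pairs tested. The pair with the lowest adjusted p joined this bin to chr4:156019001-156020000, 2.4 kb past the gene's end. It held 49.96, 71.5 and 80.0 CPM with IL-2 in intron deletion, upstream deletion and WT cells, against 35.8, 38.1 and 42.9 in the controls, from 38 to 134 contacts per library. The log2 fold change was 0.79 ± 0.159 (adjusted p = 0.000156). The strongest pair by mean contacts, with chr4:156020001-156021000, held 65.3, 103 and 113 CPM with IL-2 against 70.6, 64.2 and 70.6 in the controls (log2 0.46 ± 0.133, adjusted p = 0.0271). The intron deletion was the genotype in which this pair was lower with IL-2. Upstream, a pair with chr4:156009001-156010000 inside the neighbouring gene Sdf4 held 49.3, 82.1 and 80.0 CPM against 36.7, 50.7 and 50.5 (log2 0.62 ± 0.152, adjusted p = 0.00444).

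Contacts also spanned both receptor genes. The Tnfrsf4 bin met chr4:156032001-156033000, 1.8 kb from the gene Ttll10 and 18 kb away, with 41.3, 72.3 and 73.4 CPM with IL-2 against 37.7, 33.3 and 42.2 in the controls. This pair rose with IL-2 (log2 0.73 ± 0.162, adjusted p = 0.00106). The pair that joins the same bin to the start bin of Tnfrsf18, chr4:156026001-156027000, held 32.0, 66.2 and 66.9 CPM against 40.5, 37.3 and 52.6 and did not pass for IL-2 (log2 0.34 ± 0.161, adjusted p = 0.293). Its IL-2 value was below the control in the intron deletion and above it in the other genotypes. The pair was lower in the intron deletion than in WT (log2 -0.76 ± 0.200, adjusted p = 0.00349).

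The start bin of Tnfrsf18 had its own downstream partners. With chr4:156033001-156034000, 0.8 kb from Ttll10, it held 55.3, 65.4 and 59.7 CPM with IL-2 in intron deletion, upstream deletion and WT cells. The controls held 35.8, 31.7 and 36.0. The IL-2 change was 0.80 ± 0.166 (adjusted p = 0.000313), and the intron deletion did not pass the test against WT at this pair (log2 -0.08 ± 0.197, adjusted p = 0.854). With chr4:156032001-156033000 the start bin held 66.6, 103 and 87.8 CPM against 62.1, 57.1 and 60.2 (log2 0.52 ± 0.139, adjusted p = 0.0121).

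In the intron deletion, 18 member pairs were lower than in WT and 1 was higher, 8.68% of the member pairs where 11.3% of all pairs were called (6.27% higher, 5.03% lower). Of the 18, 15 belonged to Tnfrsf4 and 9 to Tnfrsf18, some to both, and 1 to Cd27. At Tnfrsf4 that was 28.3% of its pairs, all in the lower direction. The 1 higher pair joined the Cd27 start bin, chr6:125237001-125238000, to chr6:125270001-125271000. It held 29.97 and 20.7 CPM in the intron deletion against 11.9 and 19.4 in WT (IL-2 and control), a log2 fold change of 0.76 ± 0.235 (adjusted p = 0.0452). The lowest adjusted p was at the pair of chr4:156008001-156009000, inside Sdf4, with chr4:156015001-156016000, inside Tnfrsf4. It held 21.98 and 18.8 CPM in the intron deletion against 51.9 and 36.7 in WT (IL-2 and control), from 20 to 87 contacts, a log2 fold change of -1.13 ± 0.246 (adjusted p = 0.000250). DESeq2 called 0 member pairs, and the count by edgeR fell to 1 without the IL-2 library of either the intron deletion or WT, and to 7 without the control library of WT.

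Of the 6 strongest Tnfrsf9 pairs, 5 joined a bin before the first start to a bin in the gene's 5' part, and 1 joined 2 bins inside the gene. The strongest pair, of chr4:150914001-150915000 with chr4:150921001-150922000, held 40.0, 39.6 and 49.0 CPM with IL-2 against 37.7, 30.9 and 39.4 in the controls of intron deletion, upstream deletion and WT (log2 0.26 ± 0.178, adjusted p = 0.550). The bin of its second start, chr4:150927001-150928000, met chr4:150913001-150914000 with 30.6, 41.1 and 41.8 CPM against 21.7, 26.95 and 37.4. That pair did not pass either (log2 0.39 ± 0.194, adjusted p = 0.327). Strength is the mean over the libraries that list a pair, so a pair absent from some control tables was ranked without them, and nothing is read from that absence. The longest pair, of 37 kb, ran from chr4:150928001-150929000 to chr4:150965001-150966000, past the gene's far end, and was listed in the IL-2 library of the upstream deletion alone with 20 contacts.

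Tnfrsf1b contacts fanned out from the start bin, chr4:145246001-145247000, into the long gene body. The 6 strongest pairs all used it, as did 27 of the 32 shared pairs. The pair with chr4:145221001-145222000, 25 kb inside the gene, held 57.3, 67.7 and 68.7 CPM with IL-2 against 64.0, 71.3 and 85.1 in the controls of intron deletion, upstream deletion and WT. The pair with chr4:145254001-145255000, 7.1 kb before the gene, held 79.9, 87.5 and 87.8 CPM against 76.2, 85.6 and 78.9. The log2 changes with IL-2 of these 6 pairs ran from -0.19 to 0.09, and their adjusted p-values from 0.575 to 0.955. The longest pair reached 92 kb towards Tnfrsf8, another receptor of the family, and was listed with 21 contacts in the IL-2 library of the upstream deletion alone.

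Cd27 had the most shared pairs, 97. The bin chr6:125236001-125237000, inside the gene next to its start bin, anchored 29 of them, more than any other bin. Its strongest pair, with chr6:125231001-125232000 in the neighbouring gene Tapbpl, held 147, 124 and 128 CPM with IL-2 against 149, 138 and 137 in the controls (log2 -0.09 ± 0.111, adjusted p = 0.782). The 4 called pairs all pointed the other way, upstream of the start. The pair with chr6:125254001-125255000, 16.9 kb from the gene, held 32.0, 29.7 and 28.7 CPM with IL-2 against 44.2, 56.3 and 54.7 in the controls of intron deletion, upstream deletion and WT. Its log2 fold change was -0.79 ± 0.177 (adjusted p = 0.00118). The pair with chr6:125243001-125244000 held 73.3, 64.7 and 62.7 CPM against 90.4, 97.5 and 105 (log2 -0.56 ± 0.132, adjusted p = 0.00270). The pair with chr6:125241001-125242000 fell by 0.51 ± 0.145 (adjusted p = 0.0220), and that from the start bin chr6:125237001-125238000 to chr6:125266001-125267000, by 0.63 ± 0.164 (0.00792). In CPM, all 4 pairs were lower with IL-2 than in control in each genotype. The longest Cd27 pair, 119 kb to a bin in Tnfrsf1a, which encodes the other TNF receptor, was listed in the WT control alone with 20 contacts.

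Bin coverage, the deposited coverage count of each anchoring bin, gave a second view of the same loci. Of 95 member bins, 67 anchored a listed pair in every library. With IL-2, coverage CPM was higher in all 11 bins of the Tnfrsf4 window and all 11 of the Tnfrsf18 window in each genotype, with 1 bin in common. The median log2 ratios at Tnfrsf4 were 0.09 (intron deletion), 0.49 (upstream deletion) and 0.45 (WT). All 9 Tnfrsf9 bins were higher with IL-2 in the upstream deletion and WT (medians 0.98 and 0.66) and 7 of 9 in the intron deletion (0.05). All 15 bins of the Cd27 window were lower with IL-2 in each genotype, with medians of -0.08, -0.25 and -0.18. Some bins of the Tnfrsf4 window lay inside Sdf4, and some of the Cd27 window inside Tapbpl. The Sdf4 bin chr4:156010001-156011000 changed by 0.50 ± 0.127 on the log2 scale with IL-2 (edgeR, adjusted p = 0.0634). A change of a window therefore cannot be assigned to the receptor gene alone. Over all 18580 shared bins 51.4%, 49.8% and 49.3% were higher.

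edgeR called 0 of the 67 member bins for IL-2 and 0% of all bins, with the lowest adjusted p at 0.0616; 6801 of 18580 bins had an unadjusted p under 0.05. DESeq2 called 20 member bins, and edgeR called 55 without the intron deletion libraries. The share of all bins called in those fits is not given here, so these counts are not read as particular to the members. The bin of the first Tnfrsf9 start, chr4:150920001-150921000, had a coverage of 729, 1128 and 1265 with IL-2 against 488, 489 and 616 in the controls. In CPM these were 20.8, 37.8 and 31.2 against 20.2, 16.4 and 17.4 (log2 0.71 ± 0.200, adjusted p = 0.0692). The bin of the second start, whose promoter is printed above, is chr4:150927001-150928000. It held 65.9, 95.6 and 87.9 CPM with IL-2 against 64.7, 62.1 and 68.2 in the controls (log2 0.34 ± 0.109, adjusted p = 0.0840).

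**Figure D4:**
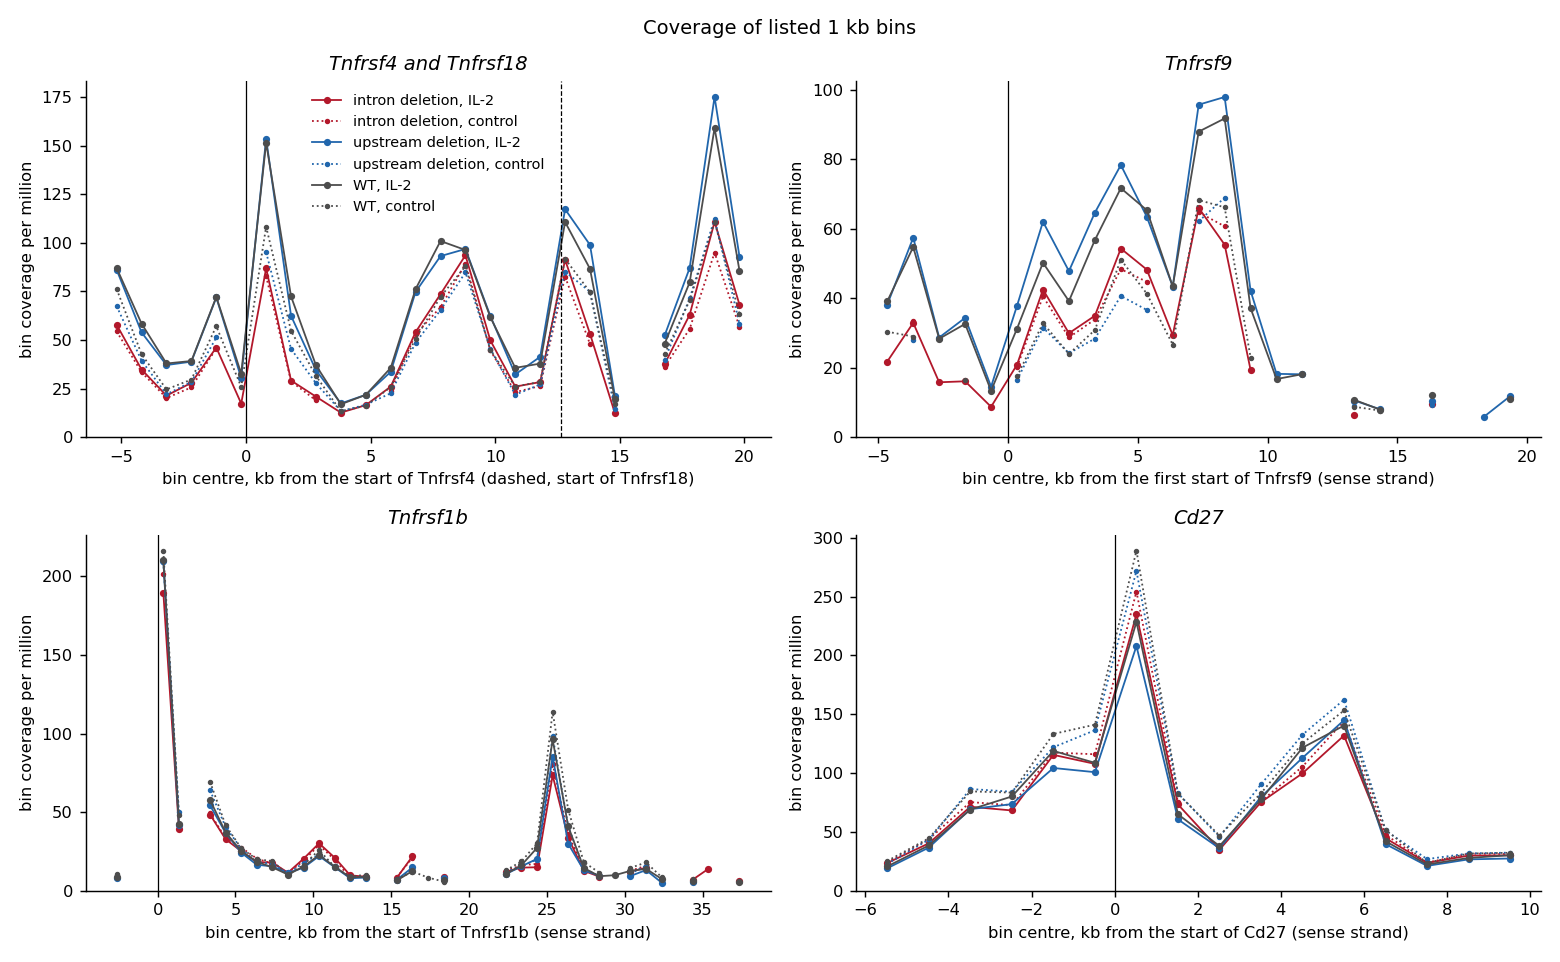
Coverage CPM of each listed 1 kb bin (y axis) against the distance of the bin's centre from the annotated start in kb (x axis), for the windows of Tnfrsf4 with Tnfrsf18, Tnfrsf9, Tnfrsf1b and Cd27; solid lines are IL-2 and dotted lines control libraries, and gaps are bins that anchored no listed pair. The bin just inside Tnfrsf4 stands at 154 and 152 in the upstream deletion and WT with IL-2, against 95.2 and 108 in their controls, and at 86.9 and 82.8 in the intron deletion.

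Coverage differed between the intron deletion and WT at single bins of the loci. Of the 67 member bins 26 were called against WT, 21 lower and 5 higher, where 46.2% of all bins were called (21.7% higher, 24.5% lower). The count was 8 without the IL-2 library of WT, 10 without its control, and 46 when the intron deletion control was left out. The largest change at Tnfrsf4 was in chr4:156015001-156016000, inside the gene, with a coverage of 29.1 and 28.7 CPM in the intron deletion against 72.4 and 54.7 in WT (IL-2 and control). Its log2 fold change was -1.12 ± 0.117 (adjusted p = 0.00101). In the gene body of Tnfrsf1b both directions occurred. The bin chr4:145222001-145223000 held 15.0 and 17.1 CPM in the intron deletion against 27.3 and 30.3 in WT (log2 -0.85 ± 0.083, adjusted p = 0.000867), and chr4:145230001-145231000 held 21.9 and 21.1 against 12.6 and 12.3 (log2 0.79 ± 0.068, adjusted p = 0.000616). The first of these was also the 1 bin called in the upstream deletion, with 20.3 and 19.8 CPM (log2 -0.52 ± 0.082 against WT, adjusted p = 0.0455). Without any 1 of the upstream deletion or WT libraries 0 bins were called there, and without either intron deletion library 14 were.

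In the wider pathway, 1 adaptor or regulator gene and 1 NF-kB gene passed the test for IL-2. Of 21 other receptors of the family 5 could be tested, of 17 ligands 7, of 20 adaptors and regulators 12 and of 13 NF-kB genes 8. With IL-2, 0 of the 5 receptors and 0 of the 7 ligands passed. Among these receptors, Tnfrsf1a had listed pairs in common with Cd27, and Tnfrsf8 with Tnfrsf1b. Which of those pairs entered the tested sums is not given here. Of the 12 adaptors and regulators 1 was called and of the 8 NF-kB genes 1, where 3.44% of all genes were called. Both called genes encode inhibitors of NF-kB signalling, and both fell. Tnfaip3, which encodes the ubiquitin-editing enzyme A20, held 836, 589.6 and 475 CPM with IL-2 against 929, 940.2 and 717 in the controls (log2 -0.47 ± 0.082, adjusted p = 0.0195). Nfkbia, which encodes the inhibitor IkBa, changed by -0.30 ± 0.066 (adjusted p = 0.0355). Other regulators on these lists went in both directions and did not pass. Among them were Otulin (log2 0.21), Nfkbid (0.16), Nfkbib (0.05), Tnip1 (-0.05), Cyld (-0.08) and Nfkbie (-0.13). The 2 calls are thus not read as a result about inhibitors as a class. Median log2 changes with IL-2 were -0.14 for the receptors, 0.07 for the ligands, -0.05 for the adaptors and regulators and -0.06 for the NF-kB genes.

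Among the ligands, the cytokine gene Tnf held 5691, 6324 and 6260 CPM with IL-2 against 5558, 6121 and 5743 in the controls, and its neighbour Ltb 4895, 5183 and 5059 against 4797, 5361 and 4901. Neither passed the test (log2 0.07 and 0.01, adjusted p = 0.532 and 0.947). The IL-2 change of Lta did not pass either (log2 0.25 ± 0.067, adjusted p = 0.0610). The response of Lta in the intron deletion was smaller than in the other genotypes (-0.30 ± 0.057, adjusted p = 0.0329). Those of its neighbours Tnf (-0.05) and Ltb (0.03) did not pass this test. The response of Tnfaip3 was smaller in size as well, a fall less steep by 0.48 ± 0.069 (adjusted p = 0.0139). Of all genes, 2.14% passed the response test.

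Against WT, the intron deletion had more contacts at Tnfrsf14, the gene of the receptor HVEM (log2 0.89 ± 0.112, adjusted p = 0.000248). It also had more at Tnfaip3 (0.60 ± 0.100, 0.00170), Birc3 (0.33 ± 0.080, 0.0155) and Nfkbid (0.22 ± 0.068, 0.0462). It had fewer at the adaptor gene Traf4 (-0.41 ± 0.071, 0.00220) and at Nfkb1 (-0.34 ± 0.076, 0.00956). None of the 7 ligands was called, while 1 of 5 receptors, 3 of 12 adaptors and regulators and 2 of 8 NF-kB genes were, against 15.5% of all genes. The ubiquitin ligase gene Birc3 was also the single gene of these lists called in the upstream deletion (0.42 ± 0.080, adjusted p = 0.0485), where 0.309% of all genes were called. Traf1 and Traf2, which encode adaptors bound by these receptors, passed in no comparison.

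Markers of the labelled cell type were present. All 7 CD8 T cell genes were measured, with summed levels of 11324, 8775 and 8777 CPM with IL-2 and 10809, 10229 and 9686 in the controls. Cd8a (log2 0.56 ± 0.063, adjusted p = 9.8e-05) and Cd8b1 (0.45 ± 0.072, 0.00125) were higher in the intron deletion than in WT. The responses of Cd3d and Cd3g to IL-2 differed between the intron deletion and the other genotypes (0.39 ± 0.078 and 0.42 ± 0.080, adjusted p = 0.0362 and 0.0329). That of Cd3e was 0.35 ± 0.081 and did not pass. With IL-2 and in control, Cd3d held 1354 and 1352 CPM in the intron deletion. It held 1144 and 1597 in the upstream deletion, and 1151 and 1418 in WT. Windows of different list genes can share pairs. The sums may therefore count a pair more than once, and results of genes in a list may not be independent. Of the markers of other cells, 4 of 4 for CD4+ and regulatory T cells had a pair listed in at least 1 library, 2 of 5 for NK cells, 2 of 5 for B cells, 3 of 6 for myeloid cells, 1 of 3 for erythroid cells and 0 of 4 for mast cells. Those with pairs in all 6 libraries, which could be tested, were Ikzf2, Klrb1c, Cd79a, Cd68 and Tyrobp. Cd4, Foxp3 and Zbtb7b thus had listed pairs and were not tested. Ikzf2 held 8.25 to 12.5 CPM with IL-2 and 11.3 to 12.3 in the controls, and Klrb1c 35.0 to 43.7 and 30.5 to 40.0. The myeloid genes summed to 588 to 626 with IL-2 and 502 to 557 in the controls, and neither passed the test. Tyrobp held nearly the same contacts as Nfkbid of the NF-kB list. In WT these were 1029 and 1054 with IL-2, and 792 and 817 in control. The 2 genes are therefore not read as separate results. Cd79a was higher in the intron deletion than in WT (0.39 ± 0.069, adjusted p = 0.00232), at 1456 and 1374 against 1064 and 1095 CPM. The part of cell composition in the member results was not tested, and more cells of a kind and more contacts per cell cannot be told apart here.

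Other genes followed the members closely across the 6 libraries, by Pearson's r of log2 CPM, which is a description over libraries that share 2 treatments. Tnfrsf4 was most like Cd48 (r = 0.995), Esyt1 (0.992) and Plcb3 (0.992). Tnfrsf18 was most like Ccdc85b (0.998), Cd48 (0.995) and Cish (0.992), a gene well known to be induced by STAT5, which held 6561, 10409.9 and 9176 CPM with IL-2 against 5615, 6316 and 6233 in the controls. Tnfrsf9 was most like Seh1l (0.990), Pim3 (0.986) and Gm33049, which shares its pairs with Pim3. Tnfrsf1b was most like Mylpf (0.991), Vps28 (0.986) and Slc39a4, which shares its pairs with Vps28. Cd27 was most like Cxcr5 (0.997), Arhgef3 (0.995) and Drap1 (0.991).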

How the data were processed

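The submitters' processing notes name HiC-Pro, Bowtie2 2.2.6, CASAVA and the build mm10 (GRCm38). In the FitHiChIP layout, per the file headers, the deposited tables give whole-number contact counts of 1 kb bin pairs and coverage counts of their bins, which the authors had not normalised. No listed pair has fewer than 20 contacts or lies closer than 5 kb; an unlisted pair was not taken as 0. Pairs listed in all 6 libraries were summed per gene window (RefSeq GRCm38.p6) and tested with edgeR 4.0.16 (quasi-likelihood, TMM, additive genotype and treatment, 2 residual degrees of freedom, R 4.3.3), separately for 4532 genes, 28033 pairs and 18580 bins. Every adjusted p is Benjamini-Hochberg over all features of its kind, with a threshold of 0.05. DESeq2 1.42.0 was an alternative. The fits were tested on simulated data. P-values reflect how responses differ between genotypes, not between like replicates, and may be technical. Intervals cover counting error only.

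Members and gene lists were chosen with earlier results of these data known. Named were all members, list genes that were called, the 2 of each list with most contacts, and 3 most alike genes per member. Named pairs were the 6 strongest, the longest and up to 8 called of each member, and not all of them are printed here.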

Additional observations from a re-analysis of the deposited data

Results flagged for a closer look

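The IL-2 response of Tnfrsf4 in the intron deletion differed from that in the other 2 genotypes, by -0.32 ± 0.069 on the log2 scale (edgeR, adjusted p = 0.0483), which is why it is listed here. The ratio of IL-2 to control contacts was 1.07 in the intron deletion, 1.39 in the upstream deletion and 1.30 in WT. The adjusted p was 0.0166 to 0.0244 under the other scalings. The 2 libraries of the intron deletion differed little at most loci, as given above, and the part of this in the Tnfrsf4 value was not tested.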

How the results depend on the processing

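Counts of member genes called for IL-2 (4) were 0 to 4 over the leave-one-out fits, 2 with DESeq2 and with windows extended by 10 kb, and 0 with unlisted pairs set to 0 or to 19 or with bin coverage. For the intron deletion (2) they were 0 to 3 over the leave-one-out fits, 1 with DESeq2, with unlisted pairs set to 19 or with no extension, and 0 with unlisted pairs at 0. Of 17 pairs called for IL-2 the leave-one-out fits gave 0 to 37, the fit without both intron deletion libraries 36, and DESeq2 or unlisted pairs at 0 gave 0. Of 19 pairs for the intron deletion the leave-one-out fits gave 1 to 26, and DESeq2 or unlisted pairs at 0 gave 0. Bins called for IL-2 (0) were 0 to 55 over the leave-one-out fits, 55 without both intron deletion libraries and 20 with DESeq2. Those for the intron deletion (26) were 8 to 46, 17 with DESeq2 and 16 with no extension, and those for the upstream deletion (1) were 0 to 14, 14 without both intron deletion libraries and 0 with a minimum mean count. The response count (1) was 2 with DESeq2 size factors, where Cd27 joined (0.26, adjusted p = 0.0369). The called IL-2 changes of Tnfrsf4, Tnfrsf18, Tnfrsf9 and Cd27 kept their direction in all 17 alternatives; their adjusted p was 0.367 with unlisted pairs at 0. Counts from the alternative fits are given without the share of all features called in the same fit. They are therefore not read as particular to the members. The cause of these shifts was not tested.

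Directions of member genes turned only in comparisons with WT whose value had not passed the test. Against WT in the intron deletion Cd27 ran from -0.072 to 0.17 over the leave-one-out fits (adjusted p = 0.0422 at the upper end, without the control library of the intron deletion) and was -0.028 with bin coverage, and Tnfrsf9 ran from -0.27 to 0.094. In the upstream deletion these fits gave -0.073 to 0.16 for Cd27, -0.091 to 0.14 for Tnfrsf18, -0.17 to 0.064 for Tnfrsf4 and -0.16 to 0.25 for Tnfrsf9. With library size alone Tnfrsf18 was -0.014 and Tnfrsf1b -0.018, and scaled by the shared pairs Cd27, Tnfrsf18 and Tnfrsf1b were -0.021, -0.037 and -0.041. With unlisted pairs at 0, Tnfrsf4 was 0.020 and Tnfrsf9 -0.040, with unlisted pairs at 19 Tnfrsf1b was -0.0061, with no extension Cd27 was -0.0072, and with bin coverage Tnfrsf1b was -0.051. Among named pairs, 434 recomputed values were on the same side of the threshold, 277 lost the call and 1 turned: the pair of chr4:156014001-156015000 with chr4:156020001-156021000 ran from -0.79 to 0.00051 for the intron deletion over the leave-one-out fits. The IL-2 fits pair each IL-2 library with the control of its genotype through the genotype term, and the labels carry no replicate numbers for any other block. Single pairs rest on as few as 20 contacts.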
